A study of Homo sapiens with 12 samples.

Results

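The genes described here are 8 members of the interleukin-1 (IL-1) and interleukin-6 (IL-6) cytokine systems, IL1A, IL1B, IL1RN, IL1R2, IL18, IL36G, IL6 and LIF. They were chosen by gene symbol, with earlier results of these data known, and are 8 of 57820 gene IDs in the deposited tables. Their transcripts were measured in 12 poly(A) RNA-seq libraries from 2 human cancer cell lines in which the transcription factor KLF5 was lowered or over-expressed. BICR31, a head and neck squamous carcinoma line, received an siRNA against KLF5 (siKLF5) or a control siRNA (siNC), with 3 libraries each, named A, B and C. HCC95, a lung squamous carcinoma line, over-expressed KLF5 E419Q, whose name denotes a glutamate-to-glutamine substitution, or KLF5 WT, or carried an empty vector, with 2 libraries each, named A and B. Nothing in the labels gives the siRNA sequence, the vector or when cells were harvested, and in both lines the cells' own KLF5 gene was still present. Separate cultures behind the libraries of 1 group are not stated in the labels, so every p-value below reflects only how these libraries scatter, which could be technical.

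IL-1α and IL-1β, the products of IL1A and IL1B, bind the receptor IL1R1, which pairs with the accessory chain IL1RAP and signals through MYD88 and IRAK kinases to NF-κB. IL1RN encodes the receptor antagonist, which occupies IL1R1 without starting a signal, and IL1R2 encodes a decoy receptor that lacks a signalling domain. IL-18 and IL-36γ are family members with receptors of their own, and IL-1β and IL-18 need cleavage by caspase-1 before they are active, a step that transcript levels do not show. IL-6 and LIF belong to the other family, whose members share the receptor chain gp130 (IL6ST) and signal mainly through JAK kinases and STAT3. Squamous epithelium is known to store IL-1α and IL-1RN and to release IL-1α on damage. KLF5 is a zinc finger factor of basal epithelia that binds GC-rich elements and CACCC boxes.

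Depth was modest, at 2150783 to 2296191 estimated counts in the siKLF5 libraries and 1922358 to 1934361 in the siNC libraries. The HCC95 libraries held 3074139 to 3364760 counts with E419Q, 3516984 to 3992553 with WT and 3455397 to 4643792 with the empty vector. Levels in BICR31 are the deposited normalised units, of which 7.87 to 9.12 make 1 count, and levels in HCC95 are counts scaled to a common library total (CPM). A level of 3 counts, taken as the floor of detection, was 23.6 to 27.4 units in BICR31 and 0.646 to 0.976 CPM in HCC95. KLF5 itself stood at 986, 1008 and 882 units in siKLF5 libraries, against 2682, 2289 and 2620 units in siNC libraries, and at 427 and 442 CPM with E419Q, 420 and 404 CPM with WT and 150 and 136 CPM with the empty vector. In TPM, the deposited level per length, KLF5 was at 454 and 439 with E419Q, 427 and 413 with WT and 90.2 and 86.2 with the empty vector. The counts do not separate vector-borne from endogenous KLF5 transcripts. All 8 squamous markers listed (among them KRT5, TP63 and DSG3) were detected in every group. Their summed level was 92079 to 95968 units in siKLF5 libraries, against 129609 to 132888 units in siNC libraries, and 13541 to 14379 CPM with E419Q, 22709 to 23823 CPM with WT and 19065 to 20098 CPM with the empty vector. The 8 markers did not all follow this sum. With siKLF5, 2 rose and 5 fell, against 15.3% and 10.8% of all genes. DSG3 rose by 0.82 and KRT5 fell by 0.62 on the log2 scale (limma adjusted p = 2.71e-07 and 8.63e-11). With E419Q against the empty vector, 3 rose and 4 fell, against 10.4% and 10.8%, and TP63 rose by 0.45 (edgeR adjusted p = 4.37e-05). With WT against the empty vector, 7 rose and 1 fell, against 10.8% and 12.1%. These are bulk samples, so fewer cells expressing a gene and less RNA per cell cannot be told apart.

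On chromosome 2, RefSeq (GRCh38.p14) orders the IL-1 cluster as IL1A, IL1B, IL37, IL36G, IL36A, IL36B, IL36RN, IL1F10 and IL1RN, so the agonists and their antagonist lie at opposite ends of the cluster. IL1R2 is also on chromosome 2, IL6 is on chromosome 7, IL18 on chromosome 11 and LIF on chromosome 22. RefSeq promoter windows, which run from 250 bases before to 50 bases after a gene's start, were matched by symbol for 6 of the 8 genes, with 10 windows in all; IL18 and LIF had no entry. The first-listed windows of IL1A, IL1B and IL1RN are shown because the ratio of these 3 transcripts, given below, set the siKLF5 libraries apart from the siNC libraries, and that of IL6 because it holds an NF-κB motif while its transcript stayed near the floor in both lines. Each is given 5′ to 3′ on the gene's strand, with GRCh38 coordinates, and capitals mark the CACCC box (CACCC or GGGTG) and the NF-κB consensus motif, both searched on either strand.
IL1A (chr2:112784444-112784743, minus strand): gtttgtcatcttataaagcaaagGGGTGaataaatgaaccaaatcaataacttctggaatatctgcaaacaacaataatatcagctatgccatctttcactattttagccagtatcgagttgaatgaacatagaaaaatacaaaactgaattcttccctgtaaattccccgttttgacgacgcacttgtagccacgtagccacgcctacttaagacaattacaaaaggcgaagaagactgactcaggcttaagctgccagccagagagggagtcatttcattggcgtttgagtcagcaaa
IL1B (chr2:112836730-112837029, minus strand): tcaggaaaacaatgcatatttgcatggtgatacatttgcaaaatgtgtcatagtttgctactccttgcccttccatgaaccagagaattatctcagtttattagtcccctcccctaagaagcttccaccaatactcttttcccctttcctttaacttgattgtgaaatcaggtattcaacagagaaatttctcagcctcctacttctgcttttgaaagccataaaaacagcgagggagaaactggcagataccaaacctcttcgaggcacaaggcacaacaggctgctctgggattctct
IL1RN (chr2:113117721-113118020, plus strand): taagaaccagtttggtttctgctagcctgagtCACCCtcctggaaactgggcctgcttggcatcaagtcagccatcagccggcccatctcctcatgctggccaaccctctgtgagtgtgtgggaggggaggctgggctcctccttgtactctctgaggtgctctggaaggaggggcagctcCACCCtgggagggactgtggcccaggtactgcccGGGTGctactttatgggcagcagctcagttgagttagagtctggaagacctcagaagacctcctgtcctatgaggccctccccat
IL6 (chr7:22726950-22727249, plus strand): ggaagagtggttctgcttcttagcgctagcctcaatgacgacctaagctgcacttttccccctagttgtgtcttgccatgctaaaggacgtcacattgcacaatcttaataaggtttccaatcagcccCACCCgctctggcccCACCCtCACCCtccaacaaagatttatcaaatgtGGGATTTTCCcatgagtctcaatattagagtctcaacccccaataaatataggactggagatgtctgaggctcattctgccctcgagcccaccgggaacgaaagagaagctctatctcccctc
The IL1A window held 1 CACCC box, with its first base 227 bases before the start. The IL1B window held none. The IL1RN window held 3, with first bases 218, 69 and 35 bases before the start. The IL6 window held 3, at 122, 107 and 101 bases before the start, and the NF-κB consensus motif at 73 bases before it. A CACCC box was present in 8 of the 10 windows of these genes and in 59.9% of all 35116 windows, and the NF-κB consensus motif in 1 of 10 and in 5.91%. The 10 windows are not all separate sequence. The IL1A windows overlap, as do the IL1RN windows not shown, where the same CACCC box counts in both. The motifs do not overlap in these windows, and a match of letters describes the sequence without showing that a factor binds there.

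The first comparison asked how the cytokine transcripts differed in BICR31 with less KLF5. With siKLF5, the 2 IL-1 agonists and LIF rose by 2.64-fold (IL1A), 4.08-fold (IL1B) and 2.71-fold (LIF). The receptor antagonist IL1RN, the decoy receptor IL1R2 and IL18 did not pass the test, and IL36G and IL6 were at or near the floor. Of the 8 genes, 7 passed the filter on low signal, and 3 of them rose and 0 fell. Over all 15710 genes tested, 15.3% rose and 10.8% fell (2404 and 1693 genes at a limma adjusted p under 0.05). With quantile normalisation, 2008 rose and 2127 fell. The median log2 fold change was 1.40 over the 7 genes and 0.04 over all genes. This median depends on IL6, whose fitted value of 2.39 (SE 1.72) came from 6 estimated counts against 3. Without IL6 the middle would lie between the values of IL18 (-0.01) and IL1A (1.40). Of the 7 values, 4 lay above 0 and 3 below.

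IL1A, the gene of the membrane-associated and intracellularly stored agonist IL-1α, had 394, 508 and 559 units in siKLF5 libraries A, B and C, against 173, 155 and 226 units in siNC libraries. The lowest siKLF5 library lay above the highest siNC library. The difference was 1.40 on the log2 scale (SE 0.21, limma adjusted p = 7.28e-05), with a 95% interval of the fold from 1.95 to 3.57. It rested on 180 estimated counts in the siKLF5 libraries and 61 in the siNC libraries.

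IL1B, the gene of the secreted agonist IL-1β, had 345, 217 and 339 units in siKLF5 libraries, against 54.5, 146 and 45.2 units in siNC libraries. The groups did not overlap, although library B was the lowest of the siKLF5 libraries and the highest of the siNC libraries. The log2 difference was 2.03 (SE 0.38, limma adjusted p = 0.000648), with a 95% interval of the fold from 2.34 to 7.11. With 111 estimated counts against 27, this was the least precise of the 3 rises.

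LIF, which signals through LIFR and gp130, was the most abundant of the 8 transcripts per unit length in siKLF5 libraries. It had 3212, 3867 and 3732 units in siKLF5 libraries, against 1218, 1423 and 1337 units in siNC libraries. The groups were far apart relative to their spread, with a log2 difference of 1.44 (SE 0.09, limma adjusted p = 2.25e-09) and a 95% interval of the fold from 2.39 to 3.08. IL6, the founding member of the same family, had 3, 1 and 2 estimated counts in siKLF5 libraries, against 0, 0 and 3 in siNC libraries. Its ratio of summed counts was 1.74 with a 95% exact binomial interval from 0.372 to 10.8, which covers counting error only, so no difference in IL6 was detectable at this depth.

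IL1RN, the antagonist, had 222, 183 and 173 units in siKLF5 libraries, against 255, 255 and 343 units in siNC libraries. Every siKLF5 library lay below every siNC library, but the log2 difference of -0.55 (SE 0.22) did not pass the test (limma adjusted p = 0.0749). With quantile normalisation it was -0.63 and passed (limma adjusted p = 0.0436). IL1R2, the decoy, had 90.4, 133 and 86.6 units in siKLF5 libraries, against 127, 91.2 and 117 units in siNC libraries, with overlapping groups and a fold of 0.916 (95% interval 0.565 to 1.48, limma adjusted p = 0.822).

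IL18 had 542, 600 and 606 units in siKLF5 libraries, against 636, 620 and 515 units in siNC libraries. The groups overlapped, and the fold of 0.990 had a 95% interval from 0.812 to 1.21 (limma adjusted p = 0.955). The interval therefore leaves out a change in IL18 of the size seen for IL1A, IL1B or LIF. IL36G, an epithelial cytokine of the IL-36 branch, had 3, 1 and 1 estimated counts in siKLF5 libraries, against 0, 1 and 0 in siNC libraries, and was left out by the filter.

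**Figure D1:**
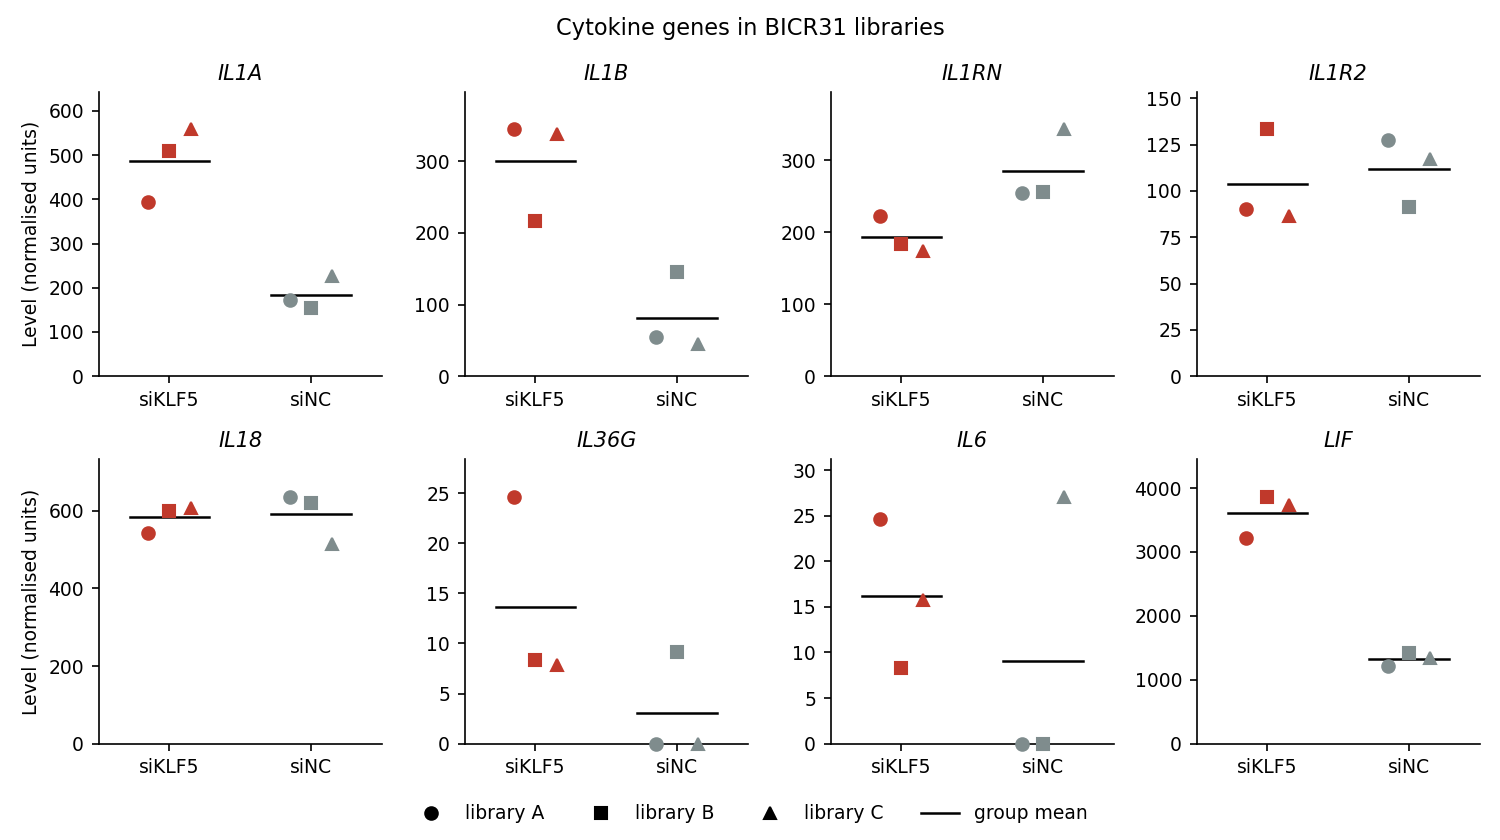
Level of each cytokine gene (vertical axis, deposited normalised units, a separate scale for each gene) in the 3 siKLF5 and 3 siNC libraries of BICR31; points are libraries and lines are group means. IL1A, IL1B and LIF are higher in every siKLF5 library than in any siNC library, IL1RN is lower in each, and IL36G and IL6 lie at or near the floor of 23.6 to 27.4 units.

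Levels of different genes were compared per length, as units per kilobase with the effective lengths of the HCC95 tables, which is an approximation for BICR31. In siKLF5 libraries the order was LIF (1143 ± 110 units per kilobase, SD, n = 3), IL18 (615 ± 37.2), IL1A (251 ± 43.5), IL1B (222 ± 53.6), IL1R2 (145 ± 36.3), IL1RN (125 ± 16.6), IL6 (20.8 ± 10.5) and IL36G (16.6 ± 11.7). The ranges of IL1A and IL1B, of IL1B and IL1R2, of IL1R2 and IL1RN and of IL6 and IL36G overlapped. In siNC libraries the order was IL18 (623 ± 69.6 units per kilobase, SD, n = 3), LIF (420 ± 32.5), IL1RN (184 ± 33.0), IL1R2 (157 ± 26.1), IL1A (95.1 ± 19.0), IL1B (60.6 ± 41.2), IL6 (11.6 ± 20.1) and IL36G (3.71 ± 6.43). Here IL1RN and IL1R2 overlapped, as did IL1A and IL1B, IL1B and IL6, and IL6 and IL36G. LIF was thus above IL18 in siKLF5 libraries and below it in siNC libraries, and both agonists were above the antagonist in siKLF5 libraries and below it in siNC libraries.

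Because the antagonist competes with the agonists for IL1R1, the ratio of IL1RN to the sum of IL1A and IL1B per length was taken in each library as a description. It was 0.267 ± 0.0537 in siKLF5 libraries (range 0.208 to 0.313) and 1.21 ± 0.306 in siNC libraries (range 0.879 to 1.48; SD, n = 3 each). The ranges of the groups did not overlap, which follows from the separation of IL1A, IL1B and IL1RN given above and adds no further evidence. In HCC95 the ratio was 0.313 and 0.313 with E419Q, 0.216 and 0.180 with WT and 0.147 and 0.268 with the empty vector. These HCC95 values rest on 6 to 22 IL1RN counts per library.

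**Figure D2:**
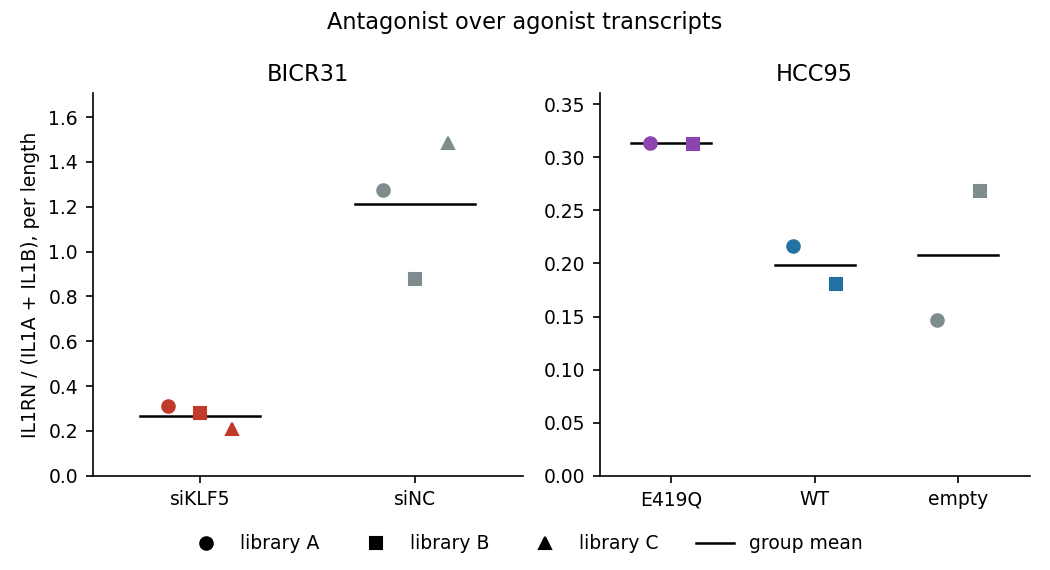
Ratio of IL1RN to the sum of IL1A and IL1B transcripts per length (vertical axis, no unit, separate scales) in each BICR31 library (left) and HCC95 library (right); points are libraries and lines are group means. The siKLF5 libraries lie between 0.208 and 0.313 and the siNC libraries between 0.879 and 1.48, while all HCC95 libraries lie at or below 0.313.

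In HCC95 the same question was put the other way, with KLF5 WT or KLF5 E419Q added. Both comparisons with the empty vector use the same 2 empty-vector libraries, so their values are given side by side. The clearest result was IL18, which rose 2.04-fold with WT, while with E419Q it differed from the empty vector by 1.07-fold and did not pass the test. IL1A and LIF passed no test in HCC95. IL1RN rose with E419Q against both WT and the empty vector, and IL1B rose with E419Q against WT, but these calls rested on few counts and were lost when libraries were left out.

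IL18 had 27.3 and 22.0 CPM with E419Q, 47.8 and 44.8 CPM with WT and 23.7 and 21.5 CPM with the empty vector. Both WT libraries lay above all others, and the E419Q and empty-vector libraries overlapped. WT exceeded the empty vector by 1.03 on the log2 scale (SE 0.14, edgeR adjusted p = 9.08e-06), with a 95% interval of the fold from 1.67 to 2.48. For E419Q against the empty vector the 95% interval of the fold was 0.849 to 1.35 (edgeR adjusted p = 0.733). The direct test of E419Q against WT gave a log2 difference of -0.93 (SE 0.14, edgeR adjusted p = 9.17e-05), a fold of 0.525 in E419Q, although KLF5 itself differed between these groups by 0.06 on the log2 scale (edgeR adjusted p = 0.683). In the direct test the intervals rest on 158 counts with E419Q and 347 with WT.

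IL1B had 9.11 and 8.62 CPM with E419Q, 4.83 and 2.25 CPM with WT and 5.21 and 4.52 CPM with the empty vector. Both E419Q libraries lay above all others. The E419Q libraries exceeded the WT libraries by 1.32 on the log2 scale (SE 0.36, edgeR adjusted p = 0.0237), from 57 counts against 26. The call was lost without E419Q library A (edgeR adjusted p = 0.157), without E419Q library B (0.125), without WT library B (0.339, with a log2 difference of 0.85) and with DESeq2 (adjusted p = 0.519). The log2 difference was 0.84 between E419Q and the empty vector (edgeR adjusted p = 0.0790) and -0.48 between WT and the empty vector (edgeR adjusted p = 0.415).

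IL1RN had 7.16 and 5.35 CPM with E419Q, 3.13 and 1.503 CPM with WT and 2.03 and 2.80 CPM with the empty vector. Both E419Q libraries were again the highest of the 6. The log2 difference was 1.30 between E419Q and the empty vector (SE 0.43, edgeR adjusted p = 0.0329), from 40 counts against 20, and 1.42 between E419Q and WT (SE 0.44, edgeR adjusted p = 0.0499), from 40 counts against 17. The call against the empty vector was lost without E419Q library A (edgeR adjusted p = 0.239), E419Q library B (0.0802), empty-vector library A (0.157) or empty-vector library B (0.0849), and with DESeq2 (0.462). The call against WT was lost on leaving out any 1 of the 6 libraries (edgeR adjusted p 0.0563 to 0.429), with the replicate letters as a block (0.0640) and with DESeq2 (0.752). WT differed from the empty vector by -0.13 on the log2 scale (edgeR adjusted p = 0.893).

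IL1A had 15.6 and 8.32 CPM with E419Q, 10.5 and 7.76 CPM with WT and 10.1 and 6.89 CPM with the empty vector, and all 3 groups overlapped. Its fold was 1.08 for WT against the empty vector (95% interval 0.695 to 1.68, edgeR adjusted p = 0.837) and 1.39 for E419Q against the empty vector (0.903 to 2.15, edgeR adjusted p = 0.287). LIF had 10.1 and 9.81 CPM with E419Q, 13.4 and 10.5 CPM with WT and 13.3 and 9.48 CPM with the empty vector, with the E419Q libraries inside the range of the empty-vector libraries. Its fold was 1.05 for WT against the empty vector (95% interval 0.748 to 1.48, edgeR adjusted p = 0.861) and 0.871 for E419Q against the empty vector (0.605 to 1.25, edgeR adjusted p = 0.639). Between E419Q and WT, neither IL1A (log2 difference 0.36, edgeR adjusted p = 0.585) nor LIF (-0.27, edgeR adjusted p = 0.640) passed the test.

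The remaining 3 genes were too low for the fit in HCC95. IL36G had 3 and 6 counts with E419Q, 7 and 4 with WT and 7 and 8 with the empty vector. IL6 had 2 and 2 counts with E419Q, 0 and 2 with WT and 5 and 3 with the empty vector. IL1R2 had 0 counts in all E419Q and WT libraries and 1 count in 1 empty-vector library, so it lay below the floor of 3 counts throughout. In the fit, 1 of the 5 tested genes rose and 0 fell with WT, against 10.8% and 12.1% of all 12933 genes. With E419Q against the empty vector, 1 of 5 rose and 0 fell, against 10.4% and 10.8% of all genes. Between E419Q and WT, 2 of 5 were higher and 1 lower with E419Q, against 4.41% and 3.59% of all genes. The median log2 differences of the 5 genes were 0.07, 0.48 and 0.36 in the same order, against 0.00, 0.00 and -0.00 over all genes.

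**Figure D3:**
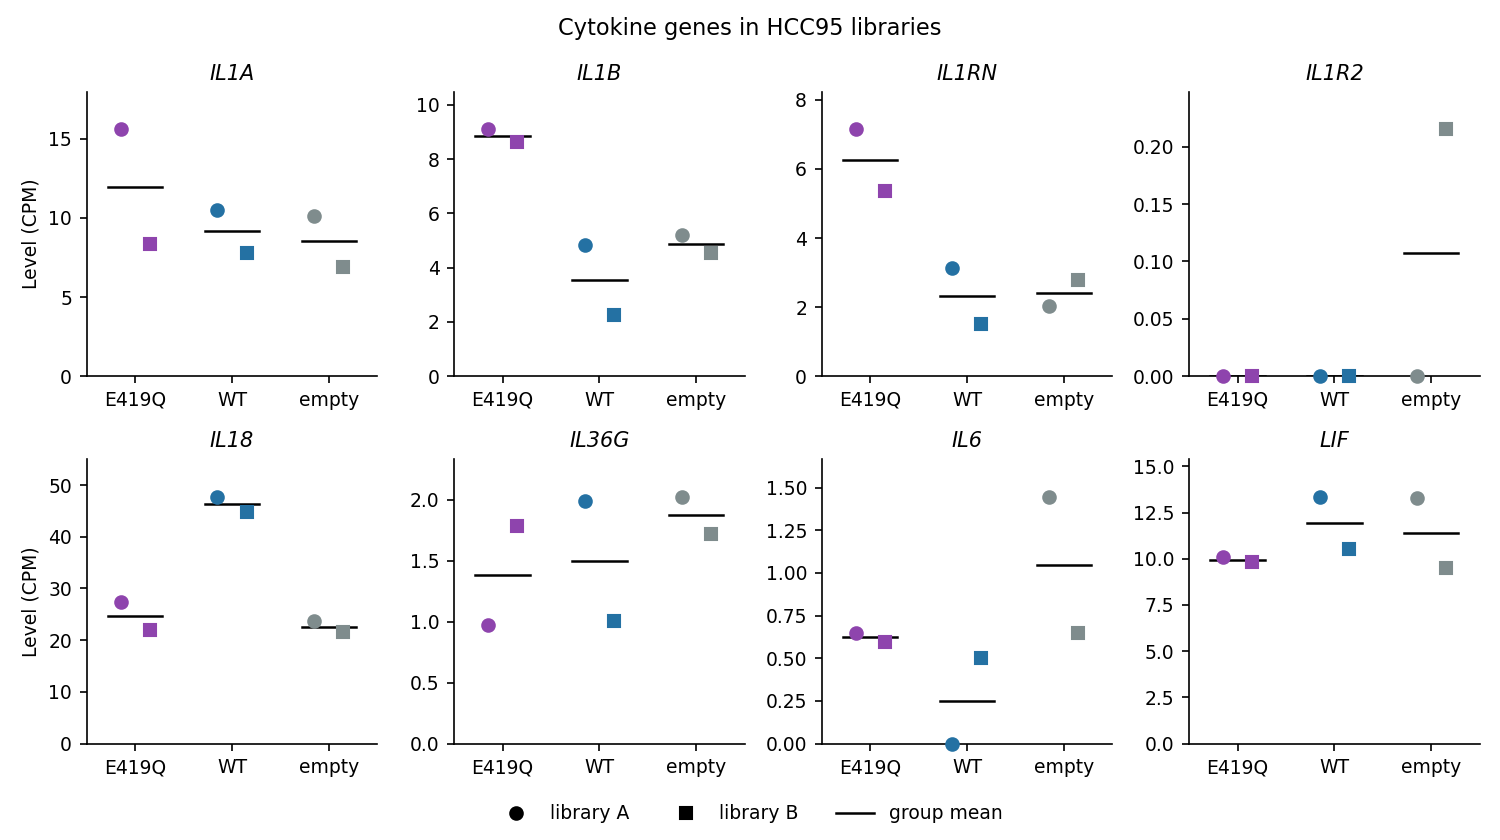
Level of each cytokine gene (vertical axis, CPM, a separate scale for each gene) in the 2 E419Q, 2 WT and 2 empty-vector libraries of HCC95; points are libraries and lines are group means. IL18 stands at 44.8 and 47.8 CPM in WT libraries and at 21.5 to 27.3 CPM in the other 4, and IL1B and IL1RN are highest in the E419Q libraries.

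**Figure D4:**
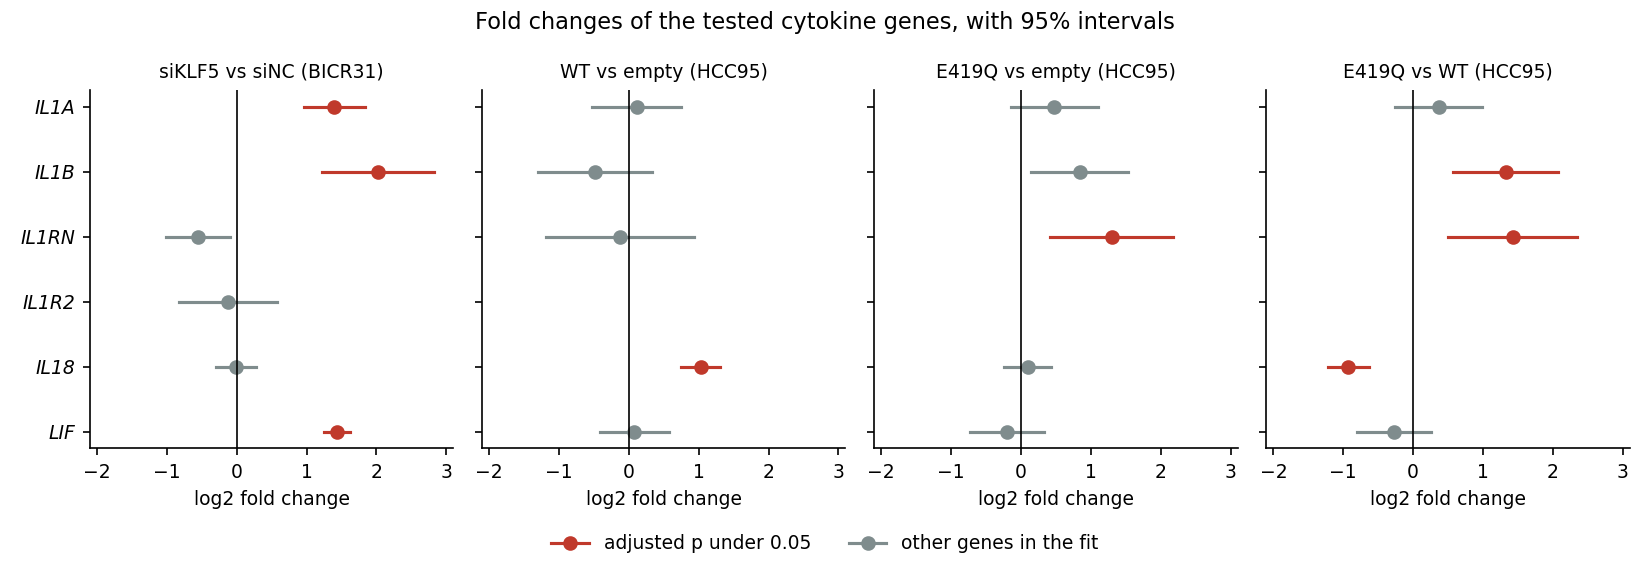
Log2 fold change (horizontal axis) of 6 cytokine genes in the 4 comparisons, with 95% intervals as lines; red marks an adjusted p under 0.05, IL36G was in no fit, and IL6, with 6 counts against 3 in its only fit, is not drawn. IL1A, IL1B and LIF lie right of 0 with siKLF5, and IL18 lies right of 0 with WT and left of 0 for E419Q against WT.

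Per length, IL18 led the 8 genes in every HCC95 group, at 37.4 ± 7.27 TPM, the deposited level per length, with E419Q, 67.3 ± 3.92 TPM with WT and 35.8 ± 0.332 TPM with the empty vector (SD, n = 2 each). With E419Q it was followed by IL1B (9.32 ± 0.262 TPM), IL1A (8.87 ± 3.87), LIF (5.90 ± 0.601), IL1RN (5.69 ± 1.13), IL36G (2.135 ± 0.544), IL6 (1.095 ± 0.0495) and IL1R2, at 0. Here the ranges of IL1B and IL1A, of IL1A and LIF and of LIF and IL1RN overlapped. With WT the order after IL18 was IL1A (6.68 ± 1.39 TPM), LIF (5.27 ± 0.410), IL1B (3.93 ± 1.12), IL36G (2.975 ± 2.21), IL1RN (2.135 ± 0.771), IL6 (0.445 ± 0.629) and IL1R2, at 0. IL36G overlapped with IL1B and with IL1RN, and IL6 was at 0 in 1 library. With the empty vector the order was IL1A (6.36 ± 1.66 TPM), IL1B (4.88 ± 0.445), LIF (4.36 ± 1.004), IL36G (4.18 ± 1.82), IL1RN (2.24 ± 0.523), IL6 (1.925 ± 0.544) and IL1R2 (0.335 ± 0.474). The ranges of neighbours from IL1A to IL36G overlapped, as did those of IL1RN and IL6. IL36G, IL6 and IL1R2 rested on at most 8 counts per library. LIF, which led the list per length in siKLF5 libraries of BICR31, was thus among IL1A, IL1B and IL1RN in HCC95. Levels were not compared between the lines, since their tables were scaled separately.

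The receptor side of the IL-1 system also differed between siKLF5 and siNC. IL1R1, the signalling receptor for both agonists, had 1726, 1767 and 1803 units in siKLF5 libraries, against 455, 274 and 388 units in siNC libraries, a log2 difference of 2.27 (SE 0.15, limma adjusted p = 7.68e-09). IL1RAP, its partner chain, had 2328 ± 311 units in siKLF5 libraries and 1619 ± 185 units in siNC libraries (SD, n = 3 each), a log2 difference of 0.52 (limma adjusted p = 0.00104). With siKLF5, 15.3% of all genes rose and 10.8% fell. Of the 7 tested genes on the list of 8 other IL-1 family receptors and binding proteins, 3 rose and 0 fell. The third, IL18R1, a chain of the IL-18 receptor, had a log2 difference of 0.88 (limma adjusted p = 0.0443) and kept its call in 2 of 11 alternatives. In HCC95, IL1R1 had 6 and 4 counts with E419Q, 1 and 0 counts with WT and 10 and 18 counts with the empty vector. WT was called below the empty vector (edgeR adjusted p = 0.000874), with a ratio of 0.0385 and a 95% exact binomial interval from 0.000942 to 0.233 for counting error; DESeq2 gave no adjusted p for this gene. IL1RAP rose with WT by 0.29 on the log2 scale (edgeR adjusted p = 0.00190) and was lower with E419Q than with WT, at a log2 difference of -0.42 (edgeR adjusted p = 0.000124).

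Of the 6 tested of 7 listed IL-6 family receptor genes, 3 rose with siKLF5 and 0 fell, against 15.3% and 10.8% of all genes. IL6ST had 4136 ± 185 units in siKLF5 libraries and 3341 ± 291 units in siNC libraries, and rose by 0.31 on the log2 scale (limma adjusted p = 0.00328). LIFR, the LIF receptor, rose by 0.53 (limma adjusted p = 0.00899), a call lost without siKLF5 library B (0.0646). The log2 difference of IL6R, the IL-6 receptor, was 0.33 (limma adjusted p = 0.0578). It passed with the replicate block (0.0408), a pseudocount of 10 (0.0498), the filter at 50 units (0.0419), without siKLF5 library B (0.0372) and without siNC library C (0.0481). With WT in HCC95, IL6ST fell by 0.40 on the log2 scale (edgeR adjusted p = 0.00105), with 97.9 ± 1.40 CPM against 128 ± 2.95 CPM with the empty vector (SD, n = 2 each). The log2 difference of LIFR was -0.44 with WT (edgeR adjusted p = 0.0721) and -0.46 with E419Q (edgeR adjusted p = 0.0756) against the empty vector, and each passed without empty-vector library A (0.0406 and 0.0409). IL6R passed no edgeR test in HCC95.

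Of the 78 other genes on 9 lists of IL-1 and IL-6 ligands, receptors, processing and signalling proteins and known induced genes, 66 were tested in BICR31. With siKLF5, 34 of the 66 rose and 1 fell, against 15.3% and 10.8% of all genes, and their median log2 fold change was 0.47, against 0.04 over all genes. Across the alternative settings 27 to 35 rose. In HCC95, 49 of the 78 were tested. With WT 4 rose and 9 fell, against 10.8% and 12.1% of all genes. With E419Q against the empty vector 4 rose and 7 fell, against 10.4% and 10.8%, and with E419Q against WT 8 were higher and 4 lower, against 4.41% and 3.59%. The counts against the empty vector thus lay near those of all genes. Their medians were -0.12, 0.01 and 0.05 in that order.

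Genes that IL-1 is known to induce through NF-κB formed the list with the highest median in BICR31. All 11 tested of the 12 listed rose with siKLF5 (10 to 12 across the alternative settings), against 15.3% of all genes. Their median log2 fold change was 1.51. PTGS2, which encodes the prostaglandin-forming enzyme cyclooxygenase-2, had 2406 ± 171 units in siKLF5 libraries and 272 ± 8.26 units in siNC libraries (SD, n = 3 each), a log2 difference of 3.14 (limma adjusted p = 5.84e-12). SOD2, a mitochondrial superoxide dismutase, rose by 1.18, LCN2, which encodes the iron-carrier-binding protein lipocalin-2, by 1.51, and NFKBIA, which encodes the NF-κB inhibitor IκBα, by 0.98 on the log2 scale (limma adjusted p 1.15e-09, 1.76e-09 and 2.25e-09). Within the IL-1 signalling list of 10 genes, 4 rose and 1 fell, against 15.3% and 10.8% of all genes. The kinase gene IRAK2 rose by 1.65, NFKBIZ, which encodes the nuclear factor IκBζ, by 1.85 and the kinase gene MAP3K7 by 0.47, while the kinase gene IRAK1 fell by 0.26 on the log2 scale (limma adjusted p 7.80e-10, 2.57e-06, 0.00295 and 0.00106). On the list of 9 inflammasome and processing genes, 8 were tested. Of these, 5 rose and 0 fell, against 15.3% and 10.8% of all genes. These calls were close to the threshold: CASP1, the gene of the caspase that cleaves IL-1β and IL-18, had a log2 difference of 0.56 (limma adjusted p = 0.0432) and kept its call in 1 of 11 alternatives. The adaptor gene PYCARD (log2 difference 0.36, limma adjusted p = 0.0275) kept it in 5 of 11. With WT in HCC95, CASP1 rose by 0.58 on the log2 scale (edgeR adjusted p = 0.00716), a call lost without empty-vector library A (0.0708), without WT library B (0.155) and with DESeq2 (0.176).

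Leukocytes and stromal cells are known sources of these cytokines, and their markers are therefore given beside the rises. The 8 leukocyte markers summed to 325 to 411 units in siKLF5 libraries, against 145 to 274 units in siNC libraries, and AIF1, FCGR3A, CD3E and CD79A were at 0 in all 6 BICR31 libraries. The integrin gene ITGAM was called higher (log2 difference 1.82, limma adjusted p = 0.0363), from 33 estimated counts in siKLF5 libraries against 10 in siNC libraries; the call was lost on leaving out any siKLF5 library, siNC library A or siNC library C. The 6 stromal markers found summed to 220 to 353 units in siKLF5 libraries, against 127 to 154 units in siNC libraries, with THY1 at 0 in all 6. The markers did not all follow this sum, since LUM and DCN were at 0 in every siKLF5 library but not in every siNC library. Of the 3 stromal markers tested, 1 rose and 0 fell, against 15.3% and 10.8% of all genes. VWF, the gene of the endothelial clotting protein, was called higher with siKLF5 (log2 difference 1.21, limma adjusted p = 0.0222), a call lost without siKLF5 library A (0.133), siKLF5 library C (0.0501) or siNC library C (0.0749). The libraries came from carcinoma cell lines and not from tissue, and which cells these marker reads came from was not tested. In HCC95 the leukocyte markers summed to at most 2.25 CPM, and the stromal markers to 77.4 to 83.8 CPM with E419Q, 64.6 to 74.2 CPM with WT and 69.1 to 69.5 CPM with the empty vector. VWF had 27.1 ± 1.56 CPM with E419Q, 14.1 ± 2.58 CPM with WT and 11.8 ± 1.75 CPM with the empty vector (SD, n = 2 each). It was higher with E419Q than with the empty vector by 1.19 on the log2 scale (edgeR adjusted p = 7.32e-05) and than with WT by 0.94 (edgeR adjusted p = 0.00162), the call against WT being lost without WT library B (0.0636) and with DESeq2 (0.170).

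With WT in HCC95, 10.8% of all genes rose and 12.1% fell. The IL-1-induced list behaved unevenly in this line, where 7 of its 12 genes were tested. With WT, 0 rose and 3 fell (1 to 4 across the alternative settings, 1 with DESeq2). The chemokine gene IL8 (CXCL8) had 13.0 and 17.2 CPM with E419Q, 5.97 and 6.26 CPM with WT and 15.3 and 20.5 CPM with the empty vector. It fell with WT by 1.57 on the log2 scale (edgeR adjusted p = 5.56e-05), and was higher with E419Q than with WT by 1.29 (edgeR adjusted p = 0.00201), a call lost without E419Q library B (0.0788) and with DESeq2 (0.0879). The chemokine gene CXCL1 had 11.7 and 16.9 CPM with E419Q, 4.55 and 5.26 CPM with WT and 8.10 and 9.04 CPM with the empty vector, and was higher with E419Q than with WT by 1.52 (edgeR adjusted p = 0.000896), a call lost without E419Q library B (0.0577) and with DESeq2 (0.0667). LCN2 had 54.6 and 53.5 CPM with E419Q, 31.0 and 28.1 CPM with WT and 25.8 and 29.5 CPM with the empty vector, and was higher with E419Q than with WT by 0.86 on the log2 scale (edgeR adjusted p = 6.77e-05). Compared with the empty vector, 2 genes of the list rose with E419Q and 2 fell, against 10.4% and 10.8% of all genes. LCN2 rose by 0.93 (edgeR adjusted p = 1.11e-05), while the rise of CXCL1 by 0.71 kept its call in 3 of 12 alternatives. PTGS2 fell, with 5.53 and 7.43 CPM with E419Q, 23.9 and 17.8 CPM with WT and 41.1 and 34.5 CPM with the empty vector. Its log2 difference was -2.55 between E419Q and the empty vector, -1.68 between E419Q and WT and -0.87 between WT and the empty vector (edgeR adjusted p 9.47e-09, 5.06e-05 and 0.000407). The last of these calls was lost with DESeq2 (adjusted p = 0.0527). TNFAIP3, which encodes the NF-κB feedback inhibitor A20, had 21.1 ± 4.14 CPM with E419Q, 24.2 ± 4.42 CPM with WT and 40.7 ± 5.48 CPM with the empty vector (SD, n = 2 each). It fell by 0.95 on the log2 scale with E419Q (edgeR adjusted p = 0.000206) and by 0.76 with WT (edgeR adjusted p = 0.00114), the call with WT being lost with DESeq2 (0.0607).

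Of the 6 tested genes among 7 other IL-6 family ligands and their subunits, 2 rose with siKLF5 and 0 fell. The shares over all genes were 15.3% and 10.8%. EBI3, a subunit of IL-27 and IL-35, rose by 1.76 on the log2 scale (limma adjusted p = 0.00888), with 94.96 ± 4.83 units in siKLF5 libraries and 27.2 ± 0.131 units in siNC libraries (SD, n = 3 each), close to the floor. Of the 6 other IL-1 family ligands listed (IL33, IL36A, IL36B, IL36RN, IL37 and IL1F10), 1 passed the filter in BICR31 and 0 in HCC95, and none was called.

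Downstream of gp130, 3 of 9 JAK-STAT genes and 3 of the 8 tested of 10 genes known to be induced through STAT3 rose with siKLF5, against 15.3% of all genes, and 0 fell in either list, against 10.8%. In HCC95, 7 of these STAT3-induced genes were tested. With E419Q compared with the empty vector, 2 of them, PIM1 and JUNB, fell, against 10.8% of all genes. The log2 differences of PIM1 and JUNB were -0.46 and -0.42 (edgeR adjusted p = 0.00614 and 0.00967), calls kept in 8 and 7 of 12 alternatives. SERPINA3, the gene of an acute-phase protease inhibitor, had 1602, 1229 and 1606 units in siKLF5 libraries, against 79.5, 27.4 and 72.3 units in siNC libraries (log2 difference 4.74, limma adjusted p = 4.89e-09). LRG1, the gene of another acute-phase protein, rose by 1.44 (limma adjusted p = 3.17e-06). SAA1, a serum amyloid gene, was higher by 1.22 (limma adjusted p = 7.57e-07). It has a near-identical neighbour with which reads may be shared, which was not tested. With siKLF5, STAT3 (log2 difference 0.05), SOCS3 (0.44), PIM1 (0.08) and JUNB (0.23) did not pass the test (limma adjusted p 0.499, 0.0873, 0.647 and 0.0537). In HCC95, STAT3 itself had 196 ± 0.301 CPM with E419Q, 142 ± 6.49 CPM with WT and 180 ± 2.18 CPM with the empty vector (SD, n = 2 each). It fell with WT by 0.36 on the log2 scale (edgeR adjusted p = 0.000865) and was higher with E419Q than with WT by 0.45 (edgeR adjusted p = 0.000213). The feedback inhibitor gene SOCS3 fell with WT by 0.99 (edgeR adjusted p = 0.00222), a call lost without WT library B (0.0732) and with DESeq2 (0.0942).

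**Figure D5:**
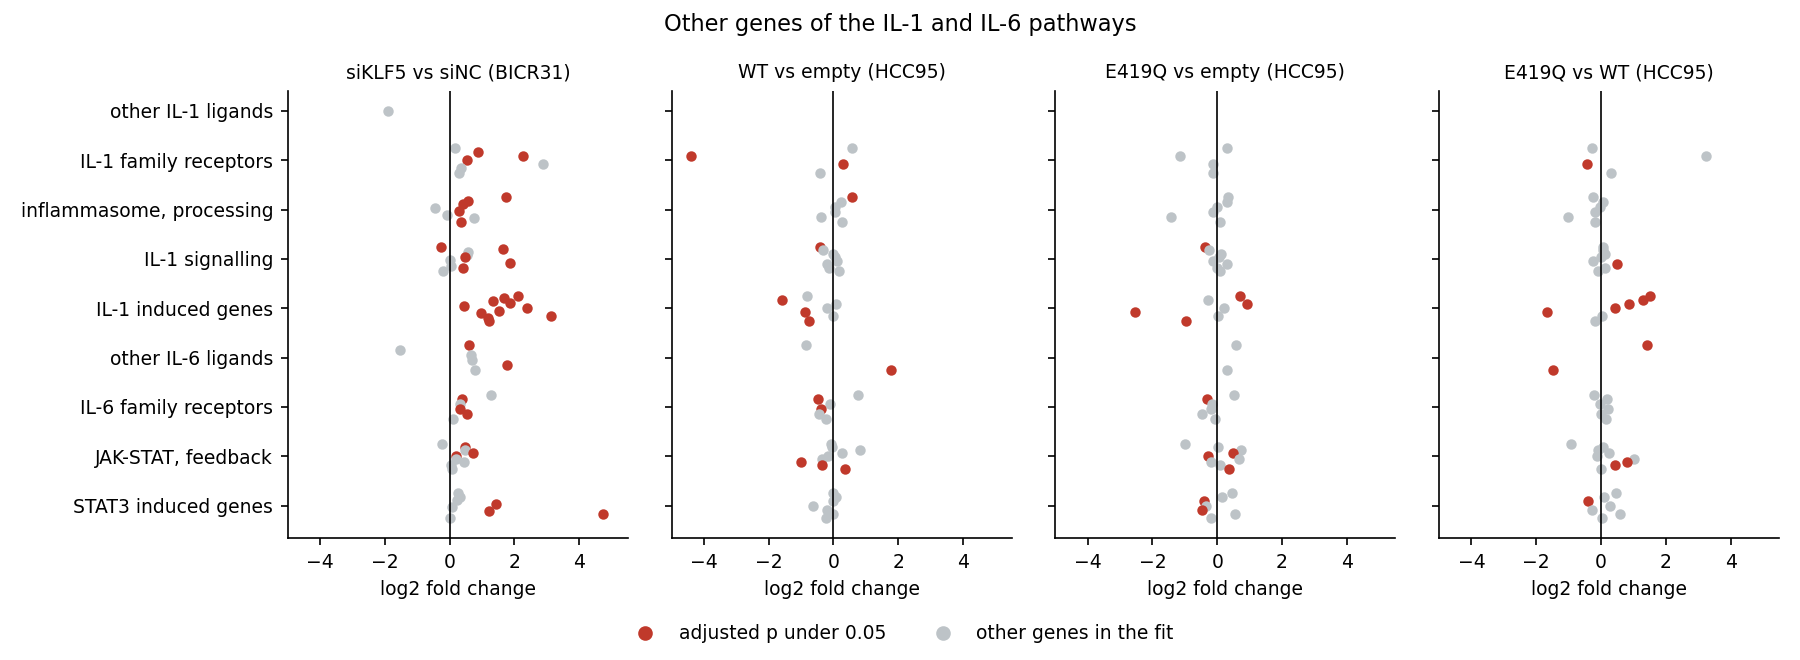
Log2 fold change (horizontal axis) of each tested gene on 9 lists of other IL-1 and IL-6 pathway genes (rows) in the 4 comparisons; red points have an adjusted p under 0.05. All 11 tested IL-1 induced genes lie right of 0 with siKLF5, while in HCC95 the 7 tested lie on both sides of 0 with E419Q and 3 called genes lie left of 0 with WT.

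Genes whose pattern was most like that of IL1A, IL1B and LIF were taken by Euclidean distance over the 3 log2 fold changes siKLF5 against siNC, WT against empty vector and E419Q against empty vector, among 10756 genes. The last 2 of these share the empty-vector libraries. LIF was nearest to SESN3 (distance 0.0916), CPE (0.125) and ITGA2 (0.160), whose log2 fold changes with siKLF5 were 1.44, 1.43 and 1.46. IL1A was nearest to the annotation's read-through entry CSNK2B-LY6G5B-1181 (0.134), SEPT3 (0.143) and HFE (0.145). For IL1B the nearest were farther by the same measure, at RP11-396K3.1 (0.470), SLC9A2 (0.579) and TRIB2 (0.588). In the same order of comparisons, the SEs of the log2 fold changes were 0.09, 0.24 and 0.25 for LIF. They were 0.21, 0.31 and 0.30 for IL1A and 0.38, 0.39 and 0.34 for IL1B. At that error the order of these neighbours is not resolved.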

How the data were processed

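Per the labels' protocols, RNA came from RNeasy columns, and NEB kits served for poly(A) selection and library construction. The submitters' processing notes name STAR, RSEM and the hg19 build for both lines, and edgeR and limma for HCC95, without versions. The HCC95 files hold RSEM expected counts, deposited unscaled, with TPM and FPKM beside them, per the file headers; TPM was used for levels per length and the deposited FPKM values were not used. For BICR31 the deposited values are a normalised signal by their file names, and the normalisation is not given in the sources used; the 75th percentile of its values above 0 was 983 to 992 units in each library. The smallest step of the signal served as 1 count, and 81.7% to 82.7% of the values above 0 were whole multiples of it within 0.02, so the BICR31 counts are estimates.

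BICR31 was tested with limma (version 3.58.1) on log2(signal + 1) for the 15710 genes averaging 10 units or more, and fold changes are on that scale, where those of genes near 0 depend on the pseudocount and on single libraries at 0. HCC95 expected counts were rounded and fitted by edgeR's quasi-likelihood test (version 4.0.16; TMM scaling; 12933 genes after filterByExpr), all 6 libraries together. P-values are two-sided, adjusted by Benjamini-Hochberg over all genes tested, with a threshold of 0.05, and the fits were tested on simulated data. No pair of replicates agreed within sampling noise (chi-square over its degrees of freedom was 1.23 to 1.83 for pairs of 1 group and 5.40 to 9.13 for other pairs).

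The 8 genes and the pathway lists were chosen with earlier results of these data known. Beside the 8 genes and KLF5, up to 4 called genes per list with the smallest p, IL1R1, IL1RAP, IL6R, IL6ST and LIFR whatever their values, and the 3 nearest genes to IL1A, IL1B and LIF (mean of at least 50 units and 5 CPM) could be named; 1 gene that this rule allows is not reported here. Intervals of count ratios are exact binomial at 95% and cover counting error only. Alternatives were other pseudocounts, filters, scalings, DESeq2 (version 1.42.0), a replicate block and leaving out each library.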

Additional observations from a re-analysis of the deposited data

How the results depend on the processing

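The rises of IL1A, IL1B and LIF with siKLF5 passed limma's test under all 11 alternatives, and the rise of IL18 with WT and its lower level with E419Q than with WT passed under all 12. Over 22 results on the 8 genes, 217 of 251 alternative values kept direction and side of the threshold, 20 no longer passed, 1 newly passed and 13 changed sign. All 13 belong to values that passed no test and to fits that left out 1 library. Across the alternatives the log2 fold change of IL18 with siKLF5 ran from -0.110 to 0.0429. For WT against the empty vector it ran from -0.17 to 0.38 (IL1A), -0.71 to 0.33 (IL1RN) and -0.18 to 0.31 (LIF). For E419Q against the empty vector it ran from -0.0345 to 0.87 (IL1A), -0.0664 to 0.25 (IL18) and -0.45 to 0.0358 (LIF). For E419Q against WT it ran from -0.15 to 0.76 (IL1A). Outside the 8 genes, 6 further values changed sign, all of the receptor genes IL6R and LIFR. IL6R ran from -0.33 to 0.0805 for WT against the empty vector. For E419Q against WT the ranges were -0.25 to 0.16 (IL6R) and -0.18 to 0.14 (LIFR). DESeq2 called 948 genes for WT against the empty vector, 963 for E419Q against the empty vector and 387 for E419Q against WT, where edgeR called 2962, 2737 and 1034, and of the 8 genes it called 1, 0 and 1, where edgeR called 1, 1 and 3. With a local dispersion trend, an alternative added after seeing the data, DESeq2 called 1490, 1437 and 572 genes, and again 1, 0 and 1 of the 8; the cause was not tested. Leaving out 1 library gave 1719 to 2792, 1626 to 2603 and 597 to 1172 calls, with 0 to 1 of the 8 genes called for E419Q against the empty vector and 1 to 2 for E419Q against WT. Libraries with the same letter did not deviate together (correlations -0.04 to 0.03). With the letter as a replicate block, 4076 genes were called for siKLF5 against siNC, and 2900, 2686 and 987 in HCC95, with 3, 1, 1 and 2 of the 8 genes; IL6R newly passed with siKLF5 (0.0408). Depth limits IL6, IL36G and, in HCC95, IL1R2, which lay near or below 3 counts per library, and leaves the HCC95 values of IL1B and IL1RN resting on 6 to 29 counts per library. Library B of siKLF5 and of siNC sets most of the spread of IL1B in BICR31.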
